A study of Rattus norvegicus with 9 samples.

Results

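Mitochondrial ribosomal proteins are the protein part of the ribosome that works inside mitochondria, and their genes were followed here in cultured rat heart muscle cells. The genes were taken from the raw count table as every row whose symbol starts with Mrpl (large subunit) or Mrps (small subunit) followed by a digit and whose counts sum to at least 20 over the 9 libraries. Of 76 rows with such names 73 met this minimum, out of 28935 rows in the table, with 44 named Mrpl and 29 named Mrps. By their known place in the ribosome 46 belong to the large subunit, including Mrps30 and Mrps18a despite their names, and 27 to the small subunit. The 3 rows under the minimum were Mrpl36 and Mrpl53, both at 0 counts in all, and Mrps21l at 2 counts. Just above it stood Mrpl30 with 37 counts and Mrpl1 with 59, followed by Mrpl49 with 377.

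The cells were neonatal rat ventricular myocytes, taken from Sprague-Dawley rats aged 1 to 2 days and kept with 3% serum for 48 h. They were then infected for 48 h in serum-free medium with 8 µL per well of an adenovirus for GFP, for Nfya or for Nfe2l1, with 3 stranded mRNA libraries per virus. The labels used here give the volume of virus and no titre, and nothing in them tells separate cultures from repeat libraries of one culture; the spread that the p-values rest on may thus be technical. GFP, a fluorescent protein, was the negative control, so all groups share the infection itself. NFYA is the DNA-binding subunit of NF-Y, which binds CCAAT boxes, and NFE2L1, a cap'n'collar factor that pairs with small Maf proteins, is best known for inducing proteasome genes.

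The mitochondrial ribosome translates the few proteins that mitochondrial DNA encodes, all of them core subunits of the respiratory chain and the ATP synthase. Its RNAs come from mitochondrial DNA, whereas all of its proteins are encoded in the nucleus, made in the cytosol and imported. Some descend from proteins of the bacterial ribosome and others were added in the mitochondrial lineage. Heart muscle depends on this ribosome to build the respiratory chain that supplies contraction, and the chain's other subunits, such as most of complex I, are nuclear products.

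The changes reported here are read against the genes' own promoters, of which the 250 bases before the start are shown for the member with the largest rise for Nfya (Mrpl40), the one with the largest rise for Nfe2l1 (Mrpl55) and the largest falls for Nfya (Mrpl32) and Nfe2l1 (Mrps26), on build GRCr8, 5′ to 3′ toward the gene, from RefSeq. Capitals mark matches to the 4 motifs whose shares are given with the promoters: the NF-Y box CCAAT (which reads ATTGG on the other strand), the NFE2L1 core TGACNNNGC, the ETS core CCGGAAG and the element of nuclear respiratory factor 1.
Mrpl40, chr11:95637501-95637750, + strand: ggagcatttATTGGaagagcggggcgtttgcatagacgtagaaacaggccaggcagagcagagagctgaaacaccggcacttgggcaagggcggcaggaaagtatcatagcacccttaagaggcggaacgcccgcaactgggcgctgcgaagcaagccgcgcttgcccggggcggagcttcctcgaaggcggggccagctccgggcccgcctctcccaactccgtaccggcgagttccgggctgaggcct
Mrpl55, chr10:44488003-44488252, + strand: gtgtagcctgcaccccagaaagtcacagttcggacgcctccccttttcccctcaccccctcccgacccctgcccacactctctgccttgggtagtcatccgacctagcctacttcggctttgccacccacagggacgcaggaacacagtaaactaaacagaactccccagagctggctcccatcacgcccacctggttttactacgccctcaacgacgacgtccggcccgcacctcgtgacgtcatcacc
Mrpl32, chr17:55260401-55260650, + strand: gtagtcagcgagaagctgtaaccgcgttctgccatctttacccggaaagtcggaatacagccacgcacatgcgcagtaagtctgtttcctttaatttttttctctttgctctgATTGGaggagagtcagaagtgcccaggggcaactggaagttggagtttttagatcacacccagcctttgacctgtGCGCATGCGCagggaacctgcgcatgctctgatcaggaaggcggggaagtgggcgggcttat
Mrps26, chr3:138222074-138222323, + strand: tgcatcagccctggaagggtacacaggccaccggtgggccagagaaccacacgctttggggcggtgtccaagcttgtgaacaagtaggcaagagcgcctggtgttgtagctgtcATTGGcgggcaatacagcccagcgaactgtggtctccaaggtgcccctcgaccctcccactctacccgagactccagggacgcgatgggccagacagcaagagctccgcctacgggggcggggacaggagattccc
The box of Mrpl40 begins 241 bases before the start, that of Mrpl32 at 137 and that of Mrps26 at 136. Mrpl32 also holds the nuclear respiratory factor 1 element at 62 bases before the start, and no match to any of the 4 motifs lies in these letters of Mrpl55.

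Library totals ran from 5712123 to 7310774 counts, and 14151 genes had enough counts to be tested. The targeted transcripts did not tell the virus groups apart by label. Nfya stood at 80.4 ± 2.19 CPM in GFP, 89.0 ± 0.68 with Nfya virus and 92.3 ± 2.20 with Nfe2l1 virus (mean ± SD of 3 libraries; CPM is the count scaled to the library total). Nfe2l1 stood at 240.7 ± 6.09, 222.7 ± 4.79 and 239.4 ± 6.14 CPM in the same order. Nfya was higher than in GFP by 0.15 ± 0.04 in its own group (SE, log2 scale, adjusted p = 0.00926) and by 0.20 ± 0.04 in the Nfe2l1-labelled group (adjusted p = 2.06e-04), and Nfe2l1 stood at -0.01 ± 0.03 in its own group (adjusted p = 0.856). Groups are therefore called Nfya-labelled and Nfe2l1-labelled, "for Nfya" or "for Nfe2l1" means libraries with that label against GFP, and each direction given holds only as far as the labels do. Replicates of the Nfya-labelled group differed from each other by no more than counting noise (chi-square per degree of freedom 0.980 to 1.01), while pairs ranged from 1.07 to 1.65 in GFP and from 1.12 to 1.53 in the Nfe2l1-labelled group. GFP replicate 3 and Nfe2l1 replicate 3 stood farthest from the others of their groups. Cardiomyocyte markers were present in every group. Summed over 10 genes they stood at 3378 ± 190 CPM in GFP, 3508 ± 27.3 in the Nfya-labelled and 3304 ± 166 in the Nfe2l1-labelled libraries. RNA came from whole wells, so fewer cells of a type and less RNA per cell cannot be told apart.

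The transcripts of the mitochondrial ribosome mostly stood in the upper part of the genes with a deposited level. Per kilobase of gene length, 71 members had a deposited RPKM value (reads scaled to gene length and library total). They ran from 11.21 to 79.0 RPKM in the GFP libraries, with a median of 40.53. Over all 14986 genes in that table the median was 17.67, the upper quartile 37.58 and the highest value 224.7 RPKM. The highest was Mrpl17, a protein at the exit of the peptide tunnel, at 79.0 ± 2.65 RPKM (SD, n = 3). Mrpl13 followed at 69.9 ± 0.20 RPKM. Mrpl33 came next at 68.7 ± 0.54 RPKM, a transcript of only 236 bases in the deposited length column. Mrpl54 (64.6 ± 1.47 RPKM) and Mrps6 (63.0 ± 0.40 RPKM) completed the 5 highest, and the libraries of these last genes overlapped. At the low end stood Mrpl49 at 11.2 ± 1.68 RPKM, Mrpl57 at 15.4 ± 0.68, Mrpl47 at 16.3 ± 0.58, Mrps36 at 19.1 ± 0.41 and Mrps35 at 19.3 ± 0.54. Mrpl57 and Mrpl47, and likewise Mrps36 and Mrps35, did not differ beyond their spread. Mrps36 is also known as a subunit of the 2-oxoglutarate dehydrogenase complex. Class medians in GFP were 46.23 RPKM for large-subunit proteins with a bacterial counterpart, 41.20 for large-subunit proteins found only in mitochondria, 33.64 for small-subunit proteins with a bacterial counterpart and 37.77 for small-subunit proteins found only in mitochondria. The other 2 members were too sparse to test: Mrpl30 had 17 counts in Nfe2l1 replicate 1, 18 in Nfya replicate 2 and 0 or 1 in every other library, and Mrpl1 had 29 of its 59 counts in GFP replicate 1. Mean counts per base of gene length ran from 0.0823 to 0.545 over the members, with Mrpl17 alone above 0.5. The most densely covered gene of the table reached 1.45. A limit on the counts of abundant transcripts, which would bring their levels nearer to the members', was not tested for.

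**Figure D1:**
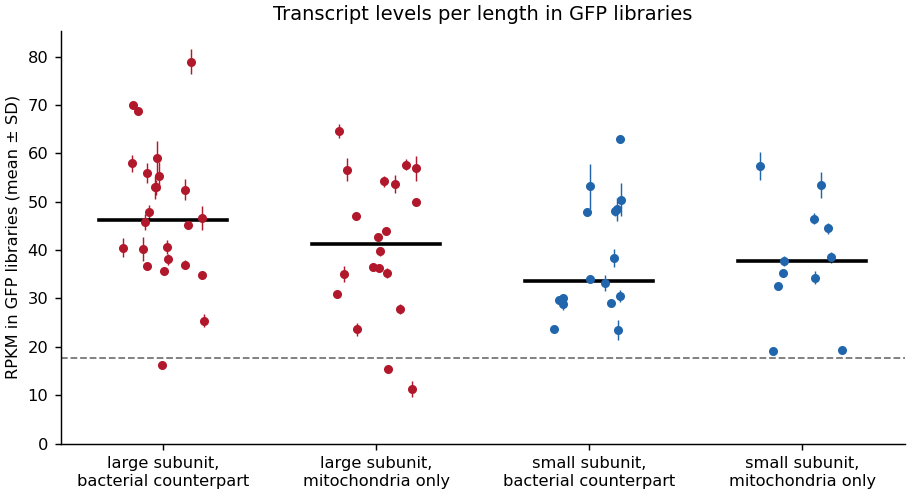
RPKM of 71 mitochondrial ribosomal protein genes in the GFP libraries, by subunit and by whether the protein has a counterpart in bacteria. Points are means of 3 libraries with SD as bars, black lines are class medians (46.23, 41.20, 33.64 and 37.77 RPKM from left to right) and the dashed line is the median of all 14986 genes, 17.67 RPKM, below which only Mrpl49, Mrpl57 and Mrpl47 lie.

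Together the 73 genes took up a slightly larger share of the counts under either factor. The share was 0.3495%, 0.3524% and 0.3540% in GFP replicates 1 to 3, 0.3622%, 0.3707% and 0.3629% in the Nfya-labelled libraries, and 0.3738%, 0.3694% and 0.3609% in the Nfe2l1-labelled libraries. All 6 libraries of the virus groups lay above the 3 GFP libraries, and the virus groups overlapped each other. In summed CPM the gap was narrower, with 3577.1 in GFP replicate 3, 3597.0 in Nfe2l1 replicate 3 and 3598.8 in Nfya replicate 1. Libraries also stood apart from GFP in 61.6% of all single genes for Nfya and 64% for Nfe2l1. The means were 0.352 ± 0.00228%, 0.365 ± 0.00472% and 0.368 ± 0.00656% (SD, n = 3). Large-subunit genes went from 0.219 ± 0.00163% in GFP to 0.227 ± 0.00341% and 0.230 ± 0.00416%, and small-subunit genes from 0.133 ± 0.000929% to 0.138 ± 0.00131% and 0.138 ± 0.00242%.

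**Figure D2:**
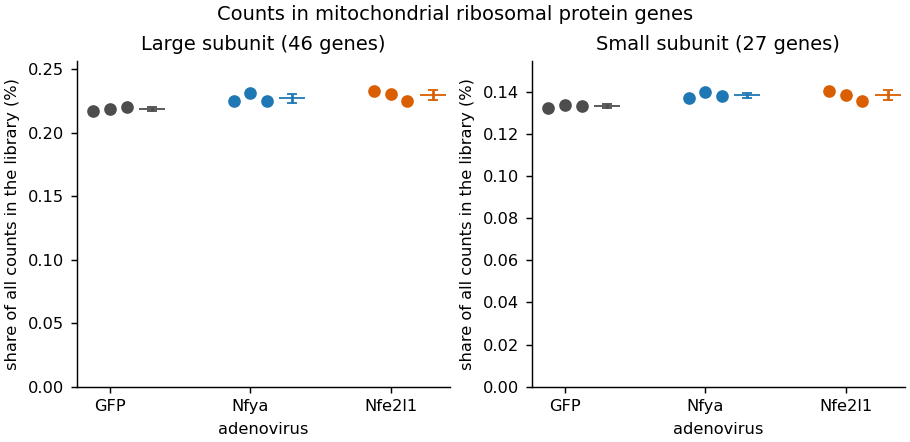
Share of all counts of a library that fell in large-subunit (left) and small-subunit (right) genes, in percent, for the 3 adenovirus groups. Points are libraries in the order of replicates 1 to 3, dashes with bars are means ± SD, and both subunits lie higher in all 6 Nfya- and Nfe2l1-labelled libraries than in the 3 GFP libraries.

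In the Nfya-labelled libraries against GFP, the comparison that asks what NFYA changes, few genes of the mitochondrial ribosome differed and none by much. Of 71 tested, 9 rose and 2 fell at an adjusted p below 0.05, and 60 did not pass. That is 15.5% of the members, beside 52.2% of all 14151 genes tested (24.3% higher and 27.9% lower). Mrpl40 (1.29-fold) and Mrpl55 (1.25-fold) were the only members both called and changed by at least 1.2-fold, a size that 33.3% of all genes reached with a call. The median log2 fold change was 0.04 over the members and -0.02 over all genes, and the members ran from -0.18 to 0.36. With upper-quartile scaling the split was 14 higher and 0 lower, beside 50.9% of all genes called, so both falls below depend on the scaling.

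Mrpl40, a large-subunit protein without a bacterial counterpart, rose most. Its level was 59.1, 58.1 and 53.6 CPM in GFP replicates 1 to 3, 72.6, 74.2 and 73.4 CPM in the Nfya-labelled libraries and 58.8, 57.4 and 55.8 CPM in the Nfe2l1-labelled libraries. The Nfya-labelled libraries stood alone above all 6 others. The log2 fold change was 0.36 ± 0.04 (SE, adjusted p = 4.97e-06) against GFP and 0.00 ± 0.05 (adjusted p = 0.967) for Nfe2l1 against GFP. The Nfya- and Nfe2l1-labelled groups differed directly as well, by 0.36 ± 0.04 (adjusted p = 4.87e-06).

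Mrpl55, the counterpart of a bacterial large-subunit protein, rose under either virus. Its level was 23.6, 23.1 and 25.7 CPM in GFP, 28.8, 30.7 and 30.7 CPM in the Nfya-labelled and 41.7, 42.3 and 40.2 CPM in the Nfe2l1-labelled libraries. The 3 groups did not overlap, with the Nfe2l1-labelled libraries highest. The log2 fold change was 0.32 ± 0.07 for Nfya (adjusted p = 9.34e-04) and 0.78 ± 0.06 for Nfe2l1 (adjusted p = 2.22e-08), and the direct difference of Nfya from Nfe2l1 was -0.46 ± 0.06 (adjusted p = 6.13e-06). In the rat gene table used for names, the span of Mrpl55 overlaps that of Guk1, a guanylate kinase gene, so their counts are uncertain where reads could be shared; Guk1 itself changed by 0.08 ± 0.05 for Nfya (adjusted p = 0.205) and fell by 0.16 ± 0.05 for Nfe2l1 (adjusted p = 0.0150).

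The other rises for Nfya were small. Mrps11, a protein of the small subunit's platform, went from 29.6, 30.9 and 31.0 CPM in GFP to 36.8, 36.2 and 34.0 CPM (0.23 ± 0.06, adjusted p = 0.0117). Mrpl23, a tunnel exit protein, went from 23.9, 24.5 and 25.1 to 27.3, 28.3 and 28.9 CPM (0.20 ± 0.07, adjusted p = 0.0493). Its call was lost under 8 of 17 alternatives. Mrpl42 went from 36.9, 40.2 and 37.9 to 43.1, 46.5 and 42.1 CPM (0.19 ± 0.06, adjusted p = 0.0170). In each of these 3 the groups were apart. Mrps25 (0.18 ± 0.06, adjusted p = 0.0283), Mrps23 (0.16 ± 0.05, adjusted p = 0.0393), Mrpl48 (0.16 ± 0.05, adjusted p = 0.0186) and Mrpl45 (0.14 ± 0.04, adjusted p = 0.0127) also rose; these 4 proteins have no bacterial counterpart, and Mrpl45 helps to hold the ribosome at the inner membrane. The falls were Mrpl32, a protein matured by a mitochondrial protease before it joins the ribosome, and Mrpl38. Mrpl32 stood at 40.8, 38.9 and 43.0 CPM in GFP and at 35.4, 36.3 and 36.2 CPM in the Nfya-labelled libraries (-0.18 ± 0.05, adjusted p = 0.0339). Mrpl38 stood at 68.6, 72.8 and 69.2 against 63.8, 65.5 and 61.0 CPM (-0.15 ± 0.05, adjusted p = 0.0188). Both sets were apart, and both calls were lost under most alternatives, 15 and 10 of 17. Without Nfya replicate 2 only 4 members were called and without Nfya replicate 3 only 6, beside 47.1% of all genes in each fit. DESeq2 called 2 members, Mrpl40 and Mrpl55, beside 34.2% of all genes.

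In the Nfe2l1-labelled libraries against GFP, the comparison that asks what NFE2L1 changes, more members passed, again with small changes, and rises outnumbered falls. Of 71 tested, 17 rose and 5 fell and 49 did not pass, which is 31.0% of the members beside 58.6% of all genes (28.9% higher and 29.7% lower). By at least 1.2-fold 7 members were called, beside 39.8% of all genes. The median was 0.07 over the members and -0.01 over all genes, and the members ran from -0.36 to 0.78. Of the 40 tested members with a bacterial counterpart 11 rose and 4 fell, and of the 31 found only in mitochondria 6 rose and 1 fell. The libraries of this comparison and of the Nfya comparison share the 3 GFP controls.

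After Mrpl55, the rises came from both subunits. Mrps33, a small protein of the small subunit's head, stood at 27.6, 27.9 and 26.7 CPM in GFP and 34.8, 33.2 and 31.9 CPM in the Nfe2l1-labelled libraries (0.28 ± 0.06, adjusted p = 0.00237). Mrps23 went from 44.3, 42.9 and 46.5 to 55.5, 55.2 and 50.9 CPM (0.27 ± 0.05, adjusted p = 2.94e-04). Mrps18c, the small-subunit counterpart of a bacterial protein in a family whose other members sit elsewhere, went from 31.1, 29.6 and 32.7 to 36.2, 39.7 and 36.3 CPM (0.27 ± 0.06, adjusted p = 0.00210). No library of one group reached the other in these genes. Mrpl22, which lines the peptide tunnel, went from 40.0, 38.7 and 41.6 to 49.8, 50.3 and 44.7 CPM (0.27 ± 0.06, adjusted p = 0.00142). Mrps11 rose to 36.4, 38.6 and 35.0 CPM (0.26 ± 0.06, adjusted p = 0.00228). Mrpl45 went from 75.5, 77.4 and 80.9 to 96.6, 90.9 and 91.2 CPM (0.25 ± 0.04, adjusted p = 5.46e-05). These 3 were apart from GFP as well. Mrps7, whose bacterial counterpart starts assembly of the small subunit's head, rose by 0.24 ± 0.05 (adjusted p = 8.25e-04) and was apart. Smaller rises were called for Mrpl4, Mrpl17, Mrps10, Mrpl21, Mrpl48, Mrpl35, Mrpl19, Mrps27 and Mrpl37, from 0.21 for Mrpl4 down to 0.11 for Mrpl37. Of these, the calls of Mrpl37, Mrpl19 and Mrps10 were lost under 6, 5 and 4 of 17 alternatives, while those of Mrpl4 and Mrpl17 held under all. Mrpl22 overlaps Gemin5 in the gene table, and Gemin5 fell by 0.12 ± 0.04 (adjusted p = 0.0291). Mrpl48 overlaps Rab6a, which rose by 0.15 ± 0.04 for Nfe2l1 (adjusted p = 0.00259). For Nfya, Rab6a fell by 0.13 ± 0.04 (adjusted p = 0.00811). Mrpl37 overlaps Ssbp3, which did not pass (-0.09 ± 0.04 for Nfe2l1, adjusted p = 0.0658).

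The falls for Nfe2l1 were led by Mrps26, a small-subunit protein found only in mitochondria. It stood at 36.5, 38.6 and 37.3 CPM in GFP, 35.3, 35.7 and 34.9 CPM in the Nfya-labelled and 28.0, 29.0 and 30.3 CPM in the Nfe2l1-labelled libraries. The Nfe2l1-labelled libraries lay below all others, with a log2 fold change of -0.36 ± 0.06 (adjusted p = 4.66e-05), and Nfya did not pass against GFP (-0.09 ± 0.05, adjusted p = 0.353). Mrpl16 went from 67.0, 64.6 and 72.9 to 58.8, 58.2 and 57.8 CPM (-0.22 ± 0.05, adjusted p = 7.88e-04). Mrpl12, which carries the stalk that recruits translation factors and is also known to bind the mitochondrial RNA polymerase, went from 69.3, 73.0 and 77.5 to 65.1, 64.1 and 60.7 CPM (-0.21 ± 0.05, adjusted p = 0.00133). In both the groups were apart. The span of Mrpl16 overlaps that of Stx3, a syntaxin gene, which rose by 1.2 ± 0.10 in the same libraries (adjusted p = 6.67e-08). Mrps6 (-0.16 ± 0.06, adjusted p = 0.0422) and Mrps2 (-0.10 ± 0.04, adjusted p = 0.0425) also fell, and these calls were lost under 9 and 10 of 17 alternatives. Mrpl49, at 5.52, 6.65 and 4.95 CPM in GFP and 7.0, 7.99 and 7.50 CPM in the Nfe2l1-labelled libraries, had the largest difference without a call (0.38 ± 0.16, adjusted p = 0.0574). It is the most sparsely counted member tested, and Syvn1, whose span it overlaps, rose by 0.33 ± 0.14 (adjusted p = 0.0470), with a wide spread in the Nfe2l1-labelled libraries (135.0 ± 37.9 CPM).

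**Figure D3:**
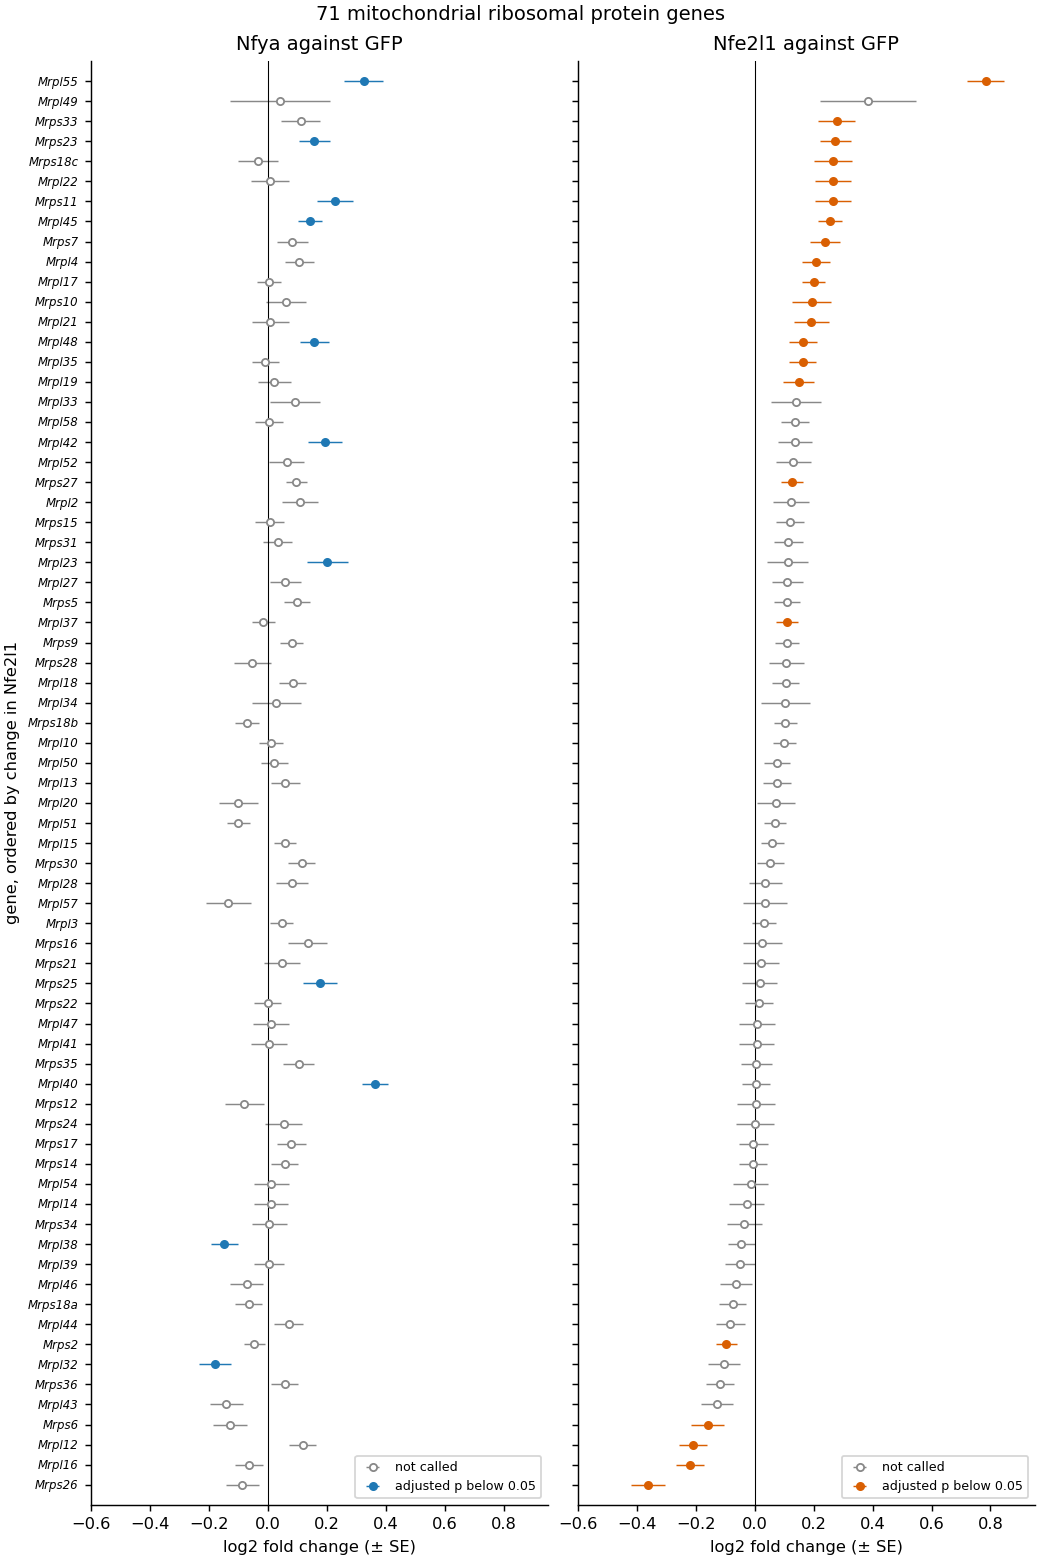
Log2 fold change ± SE of 71 mitochondrial ribosomal protein genes for Nfya (left) and Nfe2l1 (right) against GFP, ordered by the change for Nfe2l1. Filled points passed an adjusted p of 0.05 (11 on the left, 22 on the right), and Mrpl55 stands apart at 0.78 in the right panel.

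Between the viruses, Nfya-labelled against Nfe2l1-labelled libraries, which asks where the factors differ, 7 members were higher with Nfya and 12 lower, 26.8% of the members beside 50.6% of all genes (25.2% higher and 25.4% lower). Upper-quartile scaling gave 7 higher and 7 lower, and the sum of the Nfya-labelled libraries counted as a single library gave the same split. Besides Mrpl40, Mrpl12 was higher with Nfya, at 80.6, 79.5 and 77.7 CPM against 65.1, 64.1 and 60.7 CPM (0.33 ± 0.05, adjusted p = 2.24e-05). Mrps26 was higher by 0.28 ± 0.06 (adjusted p = 0.00196). Both were apart, and the difference in Mrpl12 came with a value of 0.12 ± 0.05 for Nfya against GFP that did not pass (adjusted p = 0.0513). Mrps36 (0.17 ± 0.05, adjusted p = 0.0158), Mrps25 (0.16 ± 0.06, adjusted p = 0.0443) and Mrpl16 (0.16 ± 0.05, adjusted p = 0.0166) were also higher with Nfya. Lower with Nfya, after Mrpl55, were Mrps18c (-0.30 ± 0.06, adjusted p = 0.00100), Mrpl22 (-0.26 ± 0.06, adjusted p = 0.00193) and Mrpl17 (-0.20 ± 0.04, adjusted p = 4.79e-04). Mrpl17 stood at 74.6, 75.2 and 72.5 CPM with Nfya, inside the 71.9 to 77.3 CPM of GFP, and at 86.4, 84.5 and 84.1 CPM with Nfe2l1. Mrpl21 (-0.18 ± 0.06, adjusted p = 0.0216) and Mrps18b (-0.17 ± 0.04, adjusted p = 0.00233) were lower as well. At a stricter adjusted p below 0.01, 2, 13 and 10 members were called for Nfya and for Nfe2l1 against GFP and between the viruses, beside 41.7%, 48.3% and 39.5% of all genes. Over the 3 comparisons 38 of the 71 tested members (53.5%) were called in none, beside 23.2% of all genes.

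**Figure D4:**
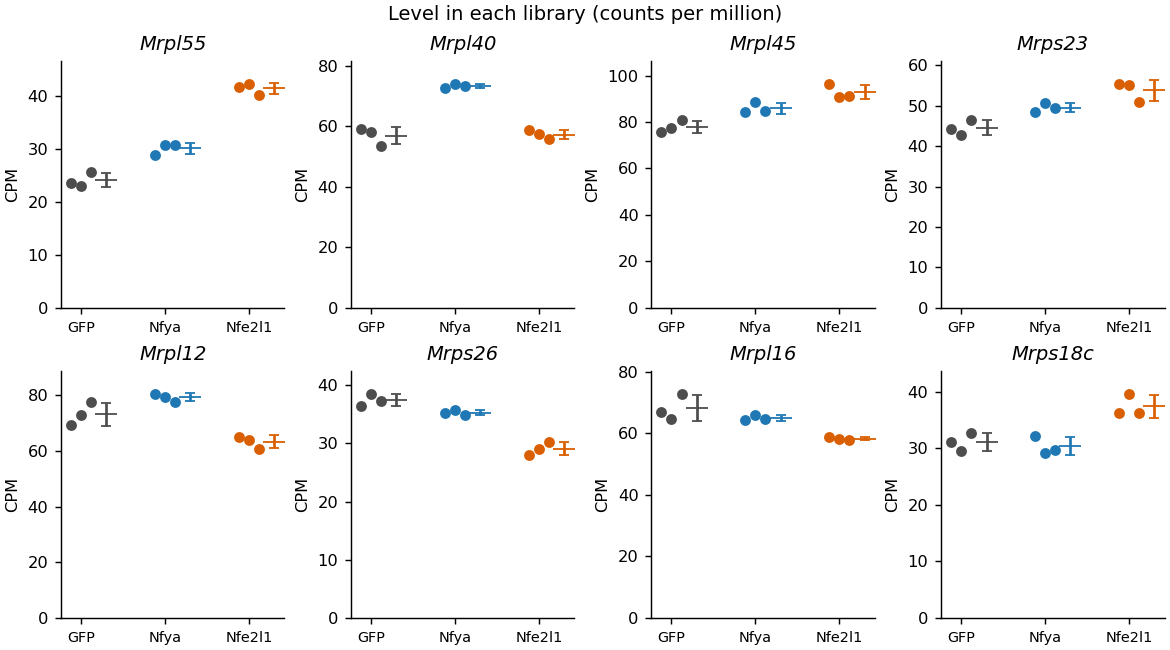
Level of 8 genes in each library, in CPM, for the GFP, Nfya- and Nfe2l1-labelled groups. Points are replicates 1 to 3 and dashes with bars are means ± SD; Mrpl40 is high only in the Nfya-labelled libraries, Mrpl55 differs between all 3 groups, and Mrps26, Mrpl12 and Mrpl16 are lowest in the Nfe2l1-labelled libraries.

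Read across both factors, 5 genes rose under either one (Mrpl45, Mrpl48, Mrpl55, Mrps11 and Mrps23), 4 were called higher for Nfya and not for Nfe2l1, 12 higher for Nfe2l1 and not for Nfya, and 0 were called in opposite directions. That count rests on Mrpl12, which fell for Nfe2l1 and stood just short of a call as a rise for Nfya: it was called in opposite directions under 10 of 19 alternatives, upper-quartile scaling among them, and in the authors' deposited table its log2 fold change for Nfya was 0.15 (adjusted p = 0.0113). Among these 4 the direct difference between the viruses passed for Mrpl40 and Mrps25. These counts share the GFP libraries and are given as a description. Of all genes 52.2% were called for Nfya and 58.6% for Nfe2l1. The share of all genes in each joint class was not worked out, so these counts show nothing particular to the members. Sizes of change were small throughout: no member passed a log2 change of 1 in any comparison, against 10.3% of all genes for Nfya and 12.4% for Nfe2l1 against GFP, and 7.09% between the viruses. The median absolute log2 change was 0.07, 0.11 and 0.08 for the members and 0.20, 0.24 and 0.19 for all genes. The median mean count per library was 297.3 for members and 287.2 for all genes tested, and for Nfya against GFP the median SE was 0.0527 for members and 0.0616 for all genes. Per base of gene length the median was 0.272 counts for members and 0.117 for all genes. The libraries of the Nfya-labelled and GFP groups did not overlap in 30 of the 71 members, beside 61.6% of all genes, and those of the Nfe2l1-labelled and GFP groups in 42, beside 64% of all genes.

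Other large nuclear-encoded complexes had called shares below the 52.2% and 58.6% of all genes for Nfya and Nfe2l1. Of 35 tested complex I subunits 3 rose and 1 fell for Nfya (11.4% called, median 0.01) and 2 rose and 4 fell for Nfe2l1 (17.1%, median -0.04). Of 63 cytosolic ribosomal proteins 0 rose and 2 fell for Nfya (3.17%, median -0.00419) and 0 rose and 10 fell for Nfe2l1 (15.9%, median -0.05). The difference between these lists and the mitochondrial ribosome was not tested. Median CPM, which is not scaled to gene length, was 47.7 for cytosolic ribosomal and 52.5 for complex I genes, beside 45.4 for the members. These values describe how deeply the lists were counted and do not rank their transcript levels. No gene with a deposited length passed a mean of 1.45 counts per base. Whether counts of abundant transcripts were limited in the deposited data, which would lower their levels and narrow their changes, was not tested. Rps3a, a cytosolic ribosomal protein, fell by 0.29 ± 0.06 for Nfe2l1 (adjusted p = 5.51e-04), and Ndufv3, a complex I subunit, fell by 0.25 ± 0.04 (adjusted p = 8.33e-05).

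**Figure D5:**
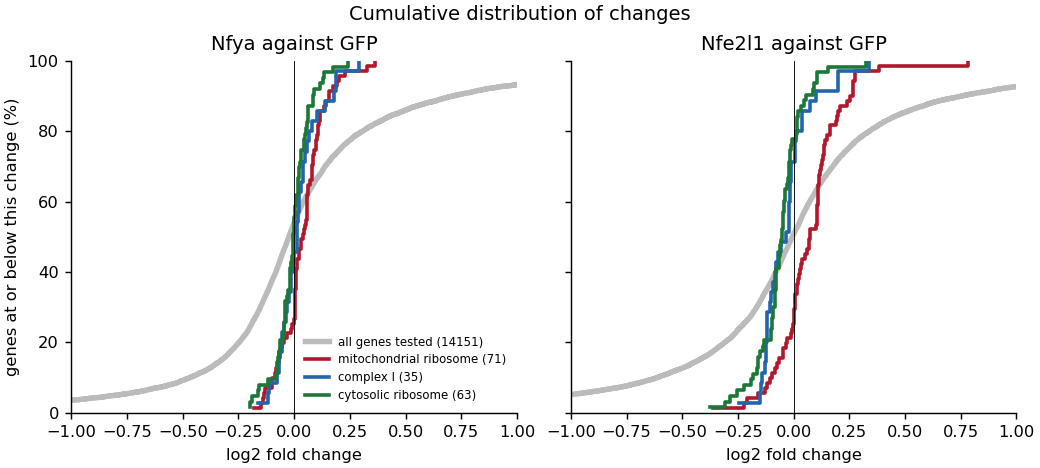
Cumulative share of genes (%) by log2 fold change against GFP, for Nfya (left) and Nfe2l1 (right), over all 14151 genes tested, 71 mitochondrial ribosomal, 35 complex I and 63 cytosolic ribosomal protein genes. The axis ends at -1 and 1; the 3 complexes are far narrower than all genes, and the medians for Nfe2l1 are 0.07, -0.04 and -0.05 for the complexes in that order.

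Lists of genes that build or serve the mitochondrial ribosome are given beside the same background, 52.2% of all genes called for Nfya and 58.6% for Nfe2l1, and the genes named from them are those with the smallest p. The 5 ribosome proteins under other symbols changed little, and against GFP the single call was Ptcd3, a small-subunit protein (0.14 ± 0.04 for Nfya, adjusted p = 0.00606). Of 25 assembly and ribosomal RNA modification factors 1 rose and 5 fell for Nfya and 6 rose and 5 fell for Nfe2l1 (medians -0.03 and -0.01), which is 24.0% and 44.0% called, both below the background. Mrm1, which methylates the large ribosomal RNA, fell from 36.7 ± 4.44 CPM in GFP to 24.7 ± 3.47 with Nfya (-0.58 ± 0.11, adjusted p = 2.52e-04) and 13.3 ± 1.89 with Nfe2l1 (-1.46 ± 0.12, adjusted p = 4.46e-08). Mrm2, of the same list, rose for Nfe2l1 from 17.45 ± 0.47 to 26.7 ± 2.64 CPM (0.61 ± 0.09, adjusted p = 2.52e-05). Rcc1l (0.56 ± 0.05, adjusted p = 1.38e-07) and Fastkd2 (0.43 ± 0.04, adjusted p = 3.64e-07), both needed for ribosome assembly, rose for Nfe2l1 too. The assembly GTPases Mtg1 and Noa1 went apart for Nfya, at 0.28 ± 0.05 (adjusted p = 3.40e-04) and -0.29 ± 0.07 (adjusted p = 0.00147).

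Of 13 mitochondrial translation factors 4 rose and 0 fell for Nfya (30.8% called, median 0.07) and 5 rose and 1 fell for Nfe2l1 (46.2%, median 0.05). Mrrf, the ribosome recycling factor, rose by 0.35 ± 0.05 for Nfya (adjusted p = 7.47e-06) and Mtrf1, a release factor, by 0.49 ± 0.05 for Nfe2l1 (adjusted p = 2.09e-07), while Oxa1l, which inserts new proteins into the inner membrane, fell by 0.26 ± 0.04 for Nfe2l1 (adjusted p = 1.86e-05). Of 18 transfer RNA synthetases and charging genes 7 rose and 1 fell for Nfya (44.4% called, median 0.03), and 4 rose and 3 fell for Nfe2l1 (38.9%, median 0.08). Lars2, for leucine, rose by 0.64 ± 0.05 for Nfe2l1 (adjusted p = 1.51e-08). Of 22 genes of mitochondrial transcription and RNA processing 4 rose and 7 fell for Nfya and 6 rose and 7 fell for Nfe2l1 (medians -0.09 and 0.06), shares of 50% and 59.1% that are close to those of all genes. Polrmt, the mitochondrial RNA polymerase, fell under either virus (-0.43 ± 0.07 for Nfya, adjusted p = 5.76e-05; -0.38 ± 0.07 for Nfe2l1, adjusted p = 1.42e-04). Elac2, which trims transfer RNA ends, rose by 0.74 ± 0.04 for Nfe2l1 (adjusted p = 1.32e-10) and fell by 0.27 ± 0.04 for Nfya (adjusted p = 6.88e-05). Of the 13 mRNAs that the mitochondrial ribosome translates 0 rose and 0 fell for Nfya by edgeR (median -0.05, 1 with an unadjusted p below 0.05). For Nfe2l1 0 rose and 6 fell (46.2% called, median -0.16). Among these falls was Cytb, listed as CYTB, which stood at 221.0 CPM in GFP and fell by 0.17 ± 0.04 (adjusted p = 0.00203). The 13 mRNAs summed to 1897 ± 106 CPM in GFP, beside 3537 ± 37.1 CPM for all members. Whether such abundant transcripts were limited in the deposited counts was not tested. Of 9 biogenesis regulators 2 rose and 5 fell for Nfya and 2 rose and 4 fell for Nfe2l1 (77.8% and 66.7% called, medians -0.11 and -0.07). The coactivator Ppargc1a rose under both (0.32 ± 0.04, adjusted p = 4.96e-06, and 0.25 ± 0.04, adjusted p = 4.58e-05), and Myc fell under both (-0.55 ± 0.04, adjusted p = 2.12e-08, and -0.48 ± 0.04, adjusted p = 6.07e-08).

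Markers of other cells are given as measured, beside the 52.2% and 58.6% of all genes called for Nfya and Nfe2l1; lists of 4 or 5 genes with calls in both directions show no common direction. Of 8 fibroblast markers 7 rose and 1 fell for Nfya and 7 rose for Nfe2l1; their summed level ran from 1013 to 1077 CPM in GFP, 1840 to 1859 in the Nfya-labelled and 1539 to 1674 in the Nfe2l1-labelled libraries. All 5 epicardial and mesothelial markers rose under either virus, from a summed 17.69 to 24.97 CPM in GFP to 75.1 to 87.7 and 95.3 to 113.6 CPM. Of 5 endothelial markers 3 rose and 1 fell under either virus at summed levels of 213.0 to 217.6, 202.3 to 209.7 and 204.8 to 229.3 CPM. In smooth muscle and pericytes 4 markers were tested, of which 3 rose and 1 fell for Nfya, and 1 rose and 2 fell for Nfe2l1 (682.5 to 697.0, 750.8 to 770.4 and 474.5 to 494.1 CPM). Of 5 macrophage markers 3 rose and 2 fell for Nfya, and 3 rose and 1 fell for Nfe2l1 (57.3 to 75.1, 70.7 to 84.8 and 78.8 to 88.9 CPM). No tested marker of these lists was at 0 in every library. Of the 10 cardiomyocyte markers 3 rose for Nfya and 0 for Nfe2l1 by edgeR (1 with an unadjusted p below 0.05), and none fell. The part of these cells in the changes of the mitochondrial ribosomal genes was not tested.

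The promoters were examined for the letters that the named factors are known to bind. RefSeq promoter windows (build GRCr8, 250 bases before to 50 after the start) matched 59 of the 73 members, 1 of them by a synonym, out of 33469 windows. CCAAT, the NF-Y box, read on both strands, was in 42.4% of the members' windows and 37.5% of all. It was in 1 of 9 windows of members that rose for Nfya, in the window of the 1 matched member that fell and in 22 of 47 of those not called. TGACNNNGC, the core of the element that NFE2L1 binds with small Maf proteins, was in 13.6% of members' and 12.1% of all windows, and in 3 of the 14 windows of members that rose for Nfe2l1: Mrpl17 (TGACTCCGC, from 5 bases after the start), Mrpl22 (TGACAACGC, 76 bases before it) and Mrps18c (TGACGGAGC, 192 bases before it). It was in 0 of 4 windows of members that fell for Nfe2l1 and in 5 of 39 of those not called. CCGGAAG, the core of ETS factors such as GABPA, was in 32.2% of members' and 8.75% of all windows. The palindromic element of nuclear respiratory factor 1 (another protein than NFE2L1, despite a shared nickname) was in 6.78% against 0.852%, in Mrpl17, Mrpl32, Mrpl44 and Mrps18b. These are matches of letters and do not show binding. In the 4 promoters printed above the matches do not overlap one another.

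Some of these genes start close to a neighbour read the other way. A gene starting within 1000 bases on the opposite strand lay beside 18 of the 59 matched members (30.5%), against 12.4% of all windows, at distances from 44 to 996 bases. In the 16 such pairs with both genes tested, the member was called in 3, the neighbour in 8 and both in 1 for Nfya, and 5, 7 and 1 for Nfe2l1; the Mrps11 and Mrpl46 pair is counted from each side. Between the viruses the member was called in 6, the neighbour in 5 and both in 3 (Mrps18b with Ppp1r10, Mrps18c with Helq and Mrps7 with Gga3). Beside the 52.2%, 58.6% and 50.6% of all genes called, members and neighbours of the pairs were not called more often. In every pair with both genes called, both changed in 1 direction. Whether pairs change together was not tested. Mrpl40 starts 186 bases from Hira, a histone chaperone gene, which stood at 0.07 ± 0.33 for Nfya (adjusted p = 0.887) at about 2.17 CPM in GFP. Mrps11 and Mrpl46 are both members and start 234 bases apart; Mrps11 rose under either virus, while Mrpl46 stood at -0.07 ± 0.06 for Nfya (adjusted p = 0.4) and -0.06 ± 0.05 for Nfe2l1 (adjusted p = 0.440). Mrpl32 starts 210 bases from Psma2, a proteasome subunit gene, and both fell for Nfya (Psma2 by 0.14 ± 0.05, adjusted p = 0.0243), whereas Psma2 rose by 0.24 ± 0.04 for Nfe2l1 (adjusted p = 2.09e-04) and Mrpl32 did not pass (-0.11 ± 0.05, adjusted p = 0.213). Mrps18c starts 72 bases from Helq, a DNA helicase gene, and both rose for Nfe2l1 (Helq by 0.53 ± 0.06, adjusted p = 7.32e-07). Mrpl51 starts 50 bases from Ncapd2, a condensin subunit gene that rose under both (0.37 ± 0.06, adjusted p = 3.70e-05, and 0.33 ± 0.06, adjusted p = 9.58e-05), while Mrpl51 stood at -0.10 ± 0.04 (adjusted p = 0.0829) and 0.07 ± 0.04 (adjusted p = 0.226). The spans of 18 members overlap another gene in the GRCr8 gene table, and how reads in such overlaps were counted is not given in the sources used here.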

How the data were processed

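The authors deposited whole-number counts for 28935 gene symbols and RPKM values with gene lengths for 14986 genes. For each virus against GFP they also deposited an edgeR table with log2 fold changes, a likelihood ratio score and p-values. Per the submitters' processing notes FastQC 0.11.4, featureCounts 1.6.0 and edgeR 3.20.5 were used, with the builds rn6, mm10 and GRCm38 named; the aligner, strand setting and annotation were not given in the sources used here.

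From these counts edgeR 4.0.16 (R 4.3.3, limma 3.58.1) gave quasi-likelihood F tests after filterByExpr and TMM scaling, with the 9 libraries in 1 model of group alone. Calls are at 0.05 after Benjamini-Hochberg adjustment across 14151 genes. The SE was taken as |log2 fold change| divided by the root of F. CPM uses TMM-scaled totals of the tested genes (5701063 to 7296030 counts per library), and genes with few counts have wider errors. The script was tested on simulated data. DESeq2 1.42.0, other scalings and filters, a replicate block and leaving out libraries were alternatives. In the tables deposited by the authors, 14 members were higher and 0 lower at an adjusted p below 0.05 for Nfya, and 15 and 4 for Nfe2l1; all 9 and 19 members called both there and here had the same direction.

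The members, lists and named genes were chosen with earlier results of these data known. Named members were, among those whose libraries did not overlap, up to 8 called in each direction by size for each virus against GFP and 6 each way between viruses. Added to these were the 5 highest and 5 lowest by RPKM, the smallest p of each class, and up to 3 of each list by smallest p. Other members were named after their values were seen. Subunit and bacterial origin were assigned from general knowledge. Promoters, neighbours and spans come from RefSeq tables of build GRCr8, which is not the authors' build.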

Additional observations from a re-analysis of the deposited data

How the results depend on the processing

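DESeq2 called 2 members for Nfya against GFP, 13 for Nfe2l1 against GFP and 9 for Nfya against Nfe2l1. It also called fewer of all genes, 34.2% for Nfya and 39.8% for Nfe2l1, beside 52.2% and 58.6% in the main fit. An adjusted p below 0.01 left 2, 13 and 10 members, beside 41.7%, 48.3% and 39.5% of all genes. A change of at least 1.2-fold left 2, 7 and 5 members, beside 33.3%, 39.8% and 31.9% of all genes. Leaving out 1 library at a time gave 4 to 14, 18 to 24 and 13 to 19 members. The share of all genes called in these fits ran from 46.1% to 52.1% for Nfya and from 53.7% to 58.0% for Nfe2l1. For Nfya the low values came without Nfya replicate 2 (4 members) and Nfya replicate 3 (6), which leave that group 2 libraries. Rises outnumbered falls in 21 of 21 settings for each virus against GFP, and in 1 of 21 for Nfya against Nfe2l1. Chosen after seeing the data, leaving out GFP replicate 3 and Nfe2l1 replicate 3 together gave 9, 19 and 20, and the 3 Nfya-labelled libraries summed and counted as 1 gave 9 (9 higher, 0 lower), 21 and 14.

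The replicate block gave 11, 22 and 19 members, with the same genes as without it. Of all genes it called 51.0% for Nfya and 57.5% for Nfe2l1. Same-numbered libraries of different groups correlated in their deviations from the group means at -0.0655 to 0.0485. Only 3 of 9 libraries correlated best with their own number, so no pairing by number was seen. This cannot exclude a pairing, because replicates of the Nfya-labelled group differed by no more than counting noise and left little to correlate.

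Of the 52 calls of members over the 3 comparisons, 24 held under all 17 alternatives run for single genes, 28 were lost under at least 1 and 0 reversed. Those that held were 2 of 11 for Nfya against GFP (Mrpl40 and Mrpl55), 13 of 22 for Nfe2l1 against GFP and 9 of 19 between the viruses. The cause of these losses was not tested. CPM per kilobase in place of RPKM gave 70.2 for Mrpl13 in GFP.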
